A study of Rattus norvegicus with 12 samples.

Results

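The genes described here encode the subunits of the mitochondrial oxidative phosphorylation complexes I to V that are made from nuclear DNA. They were chosen by symbol from an RNA table of rat hippocampus: 83 of 26949 genes carried a name of the Nduf, Sdh, Uqcr, Cox4 to Cox8 or Atp5 series, and 78 of these had at least 60 estimated counts summed over 6 libraries. By name, 36 belonged to complex I, 4 to complex II, 8 to complex III, 14 to complex IV and 16 to complex V. The libraries came from the hippocampus of male rats kept for 4 weeks in normoxia (control, 3 libraries) or for 4 weeks under CIH, chronic intermittent hypoxia (3 libraries). CIH, in which oxygen is lowered and restored in repeated cycles, is used as a laboratory model of the hypoxia of sleep apnoea. The labels give no strain, age, cycle depth or timing. Whether each library is a different rat is not stated either, so a p-value reflects library-to-library spread, which may be technical.

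Complex I takes electrons from NADH and complex II takes them from succinate, and both pass them to ubiquinone. Complex III moves them on to cytochrome c, and complex IV hands them to oxygen. Complexes I, III and IV pump protons across the inner mitochondrial membrane, and complex V, the ATP synthase, uses the gradient to make ATP. Neurons draw most of their ATP from this chain, and the subunits of all complexes but II come from both the nuclear and the mitochondrial genome. The mitochondrially encoded subunits were not analysed here.

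The RNA libraries held between 17170943 and 21941173 estimated counts, with the smallest total in CIH library 1. No pair agreed within sampling noise. The neuron markers Rbfox3, Snap25, Syt1, Slc17a7, Gad1 and Gad2 were present in each library, with a summed level of 3442 to 4192 TPM in control and 3227 to 4402 TPM in CIH. TPM is the length-scaled share of a gene among all transcripts of a library. In bulk tissue, fewer cells of a type and less RNA per cell cannot be told apart.

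No subunit gene differed between CIH and control past the threshold of an adjusted p of 0.05. By edgeR's quasi-likelihood test with Benjamini-Hochberg adjustment over 17935 genes, 0 of 17935 genes (0%) and 0 of the 78 subunit genes passed. Small differences below 0 were the usual case: 67 of the 78 genes had a log2 fold change (CIH over control) below 0 and 11 had one above 0, where 49.4% of all genes tested lay below 0. The median log2 fold change of the 78 was -0.097, beside 0.003 over all genes tested and -0.003 over the 1896 genes with a mean of at least 100 TPM. Single genes ran from -0.34 (Cox6b2, a testis-type complex IV subunit read at a trace here) to 0.26 (Uqcrh, the hinge protein of complex III). The median SE of a log2 fold change was 0.13 over the 78. For 55 of them (70.5%) the fold change was smaller than its own SE, as it was for 74.5% of all genes tested. All 78 passed the filter on low counts, so these counts cover the whole set.

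**Figure D1:**
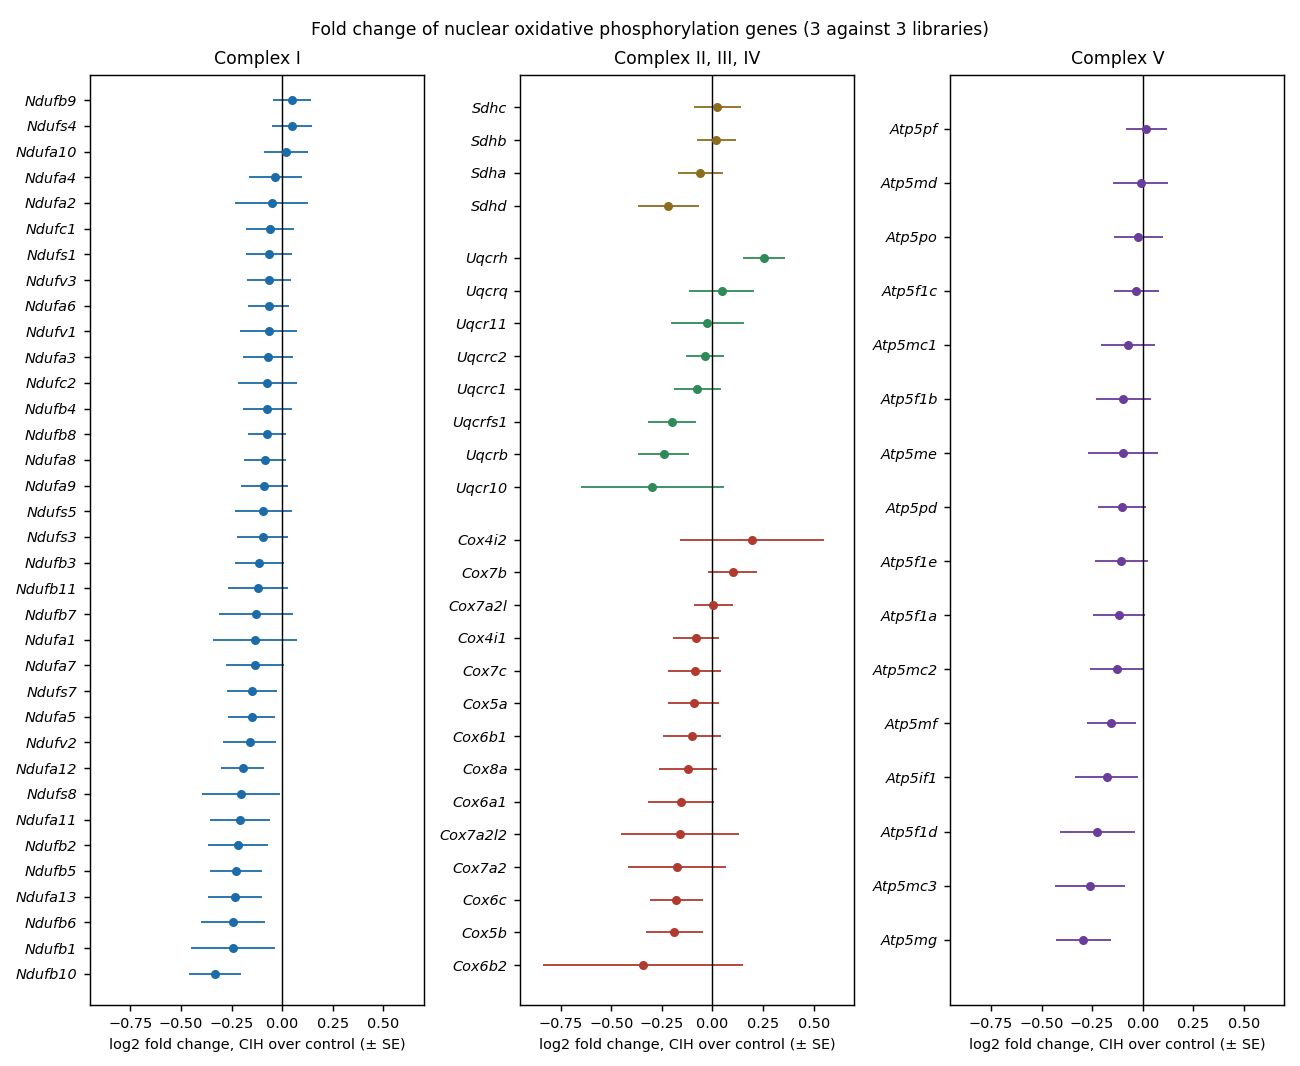
Log2 fold change of the subunit genes, CIH over control (x axis, log2 units; 1 of the 78 is not drawn), with bars of ± 1 SE from edgeR, 3 libraries against 3, in panels by complex. Most points lie left of 0 and most bars cross it: 67 of the 78 genes are below 0 and Uqcrh, at 0.26, is the farthest above.

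At an unadjusted p under 0.05 there were 2 of the 78 genes, Ndufb10 and Uqcrh, against 1.78% of all genes tested. The 3 CIH libraries all lay below the 3 control libraries in 4 of the 78 genes, Ndufb10, Ndufa12, Uqcrb and Atp5mg, against 2.65% of all genes tested. They all lay above in 1 of the 78, Uqcrh, against 3.05% of all genes tested. As shares of the 78 genes these are 2.56%, 5.13% and 1.28%, and with 1 to 4 genes each they are not read as different from the background.

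The promoters of 4 of the 5 genes whose groups did not overlap, all but Uqcrb, are shown to set those genes side by side, as the 250 bases before the start of the RefSeq gene in the GRCr8 assembly. Capitals mark a match, on either strand, to 1 of 4 motifs: the NRF1 core GCGCANGC, the ETS or GABP core CCGGAAGT, the ERR core TNAAGGTCA and the hypoxia response core ACGTG. NRF1, GABP and the oestrogen-related receptors are activators of genes for mitochondrial proteins. No motif contains another. Ndufb10 lies on the minus strand with its window at chr10:14255967-14256216, Ndufa12 on the plus strand at chr7:30658066-30658315, Atp5mg on the minus strand at chr8:54130408-54130657 and Uqcrh on the minus strand at chr5:134790883-134791132.
Ndufb10: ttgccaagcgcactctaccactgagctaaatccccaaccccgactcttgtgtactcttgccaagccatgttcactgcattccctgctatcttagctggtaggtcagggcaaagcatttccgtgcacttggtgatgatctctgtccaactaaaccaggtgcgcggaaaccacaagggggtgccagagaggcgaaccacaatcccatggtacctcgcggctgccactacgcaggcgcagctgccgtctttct
Ndufa12: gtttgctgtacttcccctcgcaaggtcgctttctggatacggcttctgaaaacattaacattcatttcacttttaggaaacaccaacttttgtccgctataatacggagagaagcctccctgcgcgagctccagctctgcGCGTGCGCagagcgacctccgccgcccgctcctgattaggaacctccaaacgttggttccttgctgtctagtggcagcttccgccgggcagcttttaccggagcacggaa
Atp5mg: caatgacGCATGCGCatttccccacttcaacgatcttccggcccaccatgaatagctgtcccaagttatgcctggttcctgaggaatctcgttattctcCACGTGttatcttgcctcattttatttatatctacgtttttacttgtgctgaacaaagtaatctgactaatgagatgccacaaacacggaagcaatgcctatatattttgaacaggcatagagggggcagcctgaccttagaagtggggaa
Uqcrh: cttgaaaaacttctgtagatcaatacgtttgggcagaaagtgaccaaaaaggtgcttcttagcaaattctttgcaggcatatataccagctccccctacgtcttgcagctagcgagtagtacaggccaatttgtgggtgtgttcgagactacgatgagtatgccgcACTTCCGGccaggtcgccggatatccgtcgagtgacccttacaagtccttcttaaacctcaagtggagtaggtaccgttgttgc
The Ndufb10 window held none of the 4 motifs. The Ndufa12 window held the NRF1 core, the Atp5mg window held the NRF1 and hypoxia response cores, and the Uqcrh window held the ETS core. The NRF1 core was present in 18 of the 69 subunit genes with a window (26.1%) and in 8.76% of 27457 genes with a window. For the ETS core the shares were 11.6% (8 of 69) and 3.45%, and for the ERR core 1.45% (1 of 69) and 1.10%. The hypoxia response core, a short string, was in 21.7% (15 of 69) of the subunit windows and in 18.1% of all. By complex, the NRF1 core was in 9 of 33 windows of complex I, 2 of 4 of complex II, 1 of 6 of complex III, 1 of 11 of complex IV and 5 of 15 of complex V. The 27457 genes were not limited to genes tested for expression or matched to the subunit genes in level. Whether other genes of like level hold these motifs as often was not tested. A match is a description of the letters and not a site of binding.

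Per length, the subunit messages were abundant. Their summed level was 17178, 17796 and 19830 TPM in the 3 control libraries and 15854, 17719 and 17019 TPM in the 3 CIH libraries, which is 1.59% to 1.98% of all TPM. The group means were 18268 ± 1388 TPM in control and 16864 ± 942 TPM in CIH (SD, n = 3 each), a ratio of 0.923. CIH library 2 stood above control library 1, so the groups overlapped. The share of each complex in that sum was close in both groups. Complex I held 29.6% ± 0.293 of it in control and 29.3% ± 0.580 in CIH, and complex V held 30.7% ± 0.395 and 30.5% ± 0.557 (SD, n = 3 each). The corresponding means were 28.9% and 28.7% for complex IV, 8.03% and 8.54% for complex III, and 2.79% and 2.96% for complex II.

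Over the 6 libraries the highest single levels were those of Cox8a at a mean of 953 TPM and Cox6a1 at 859.6 TPM, small structural subunits of complex IV. Atp5f1e, the epsilon subunit of the ATP synthase, followed at 693 TPM, then Cox4i1 at 648 TPM and Atp5f1b, the catalytic beta subunit, at 645 TPM. Neighbours in this order overlapped: Atp5f1e ran from 587 to 778 TPM and Cox4i1 from 579 to 720.3 TPM. Complex I messages were lower and more even, between 61.8 TPM (Ndufc1) and 395 TPM (Ndufb4) with a median of 140.3 TPM. The median was 128 TPM for complex II, 174 TPM for complex III, 287 TPM for complex IV and 284 TPM for complex V.

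**Figure D2:**
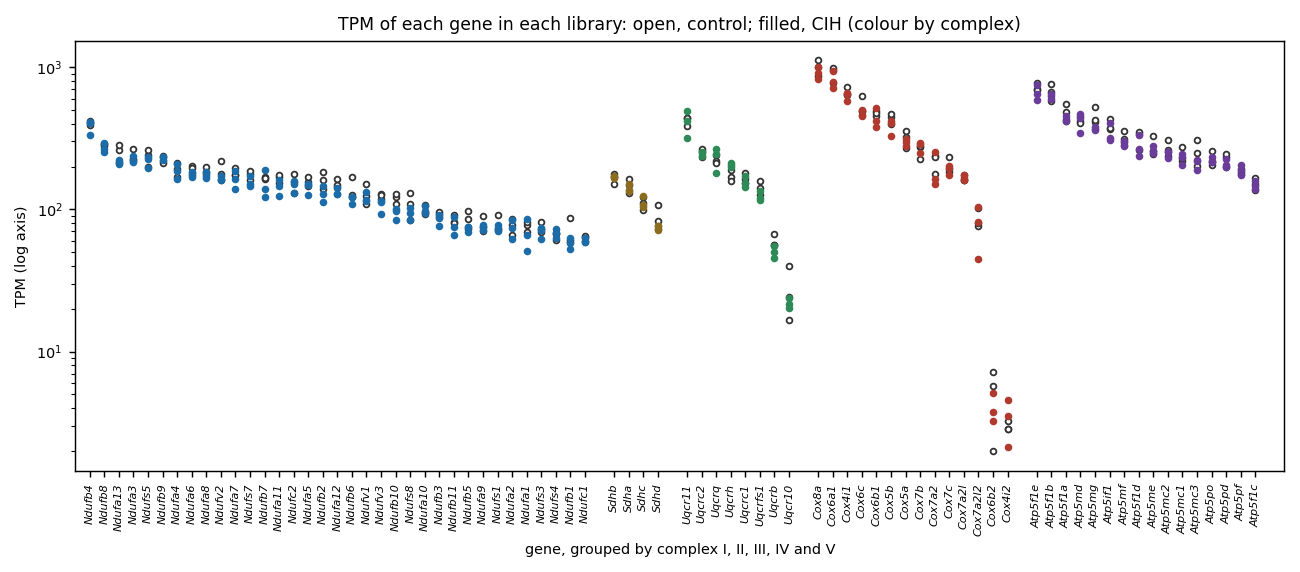
Level of the subunit genes in each library in TPM on a log axis (1 of the 78 is not drawn), with genes ordered by mean level within complexes I, II, III, IV and V, open points for control and filled points for CIH. The 2 groups intermix for nearly every gene, and Cox4i2 and Cox6b2 lie far under all the others at means of 3.21 and 4.51 TPM.

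The subunit genes varied together from library to library. The mean log2 CPM of the 78 genes, each centred on its own mean over 6 libraries, was -0.043, 0.012 and 0.188 in control libraries 1, 2 and 3 and -0.148, 0.034 and -0.043 in CIH libraries 1, 2 and 3. Control library 3 was the highest library for 53 of the 78 genes, against a smaller share, 2848 of 17935, of all genes tested. CIH library 1 was the lowest for 44 of the 78, again against a smaller share, 4583 of 17935, of all genes tested. The other 4 libraries lay between these, with control and CIH values interleaved. As a description over 6 libraries that share depth scaling and tissue sampling, the correlation of each gene with the mean of the other subunit genes had a median of 0.767 and was above 0 for 73 of 78. Atp5mc2, a c-ring gene, stood highest at 0.974, and Uqcrh stood lowest at -0.735.

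**Figure D3:**
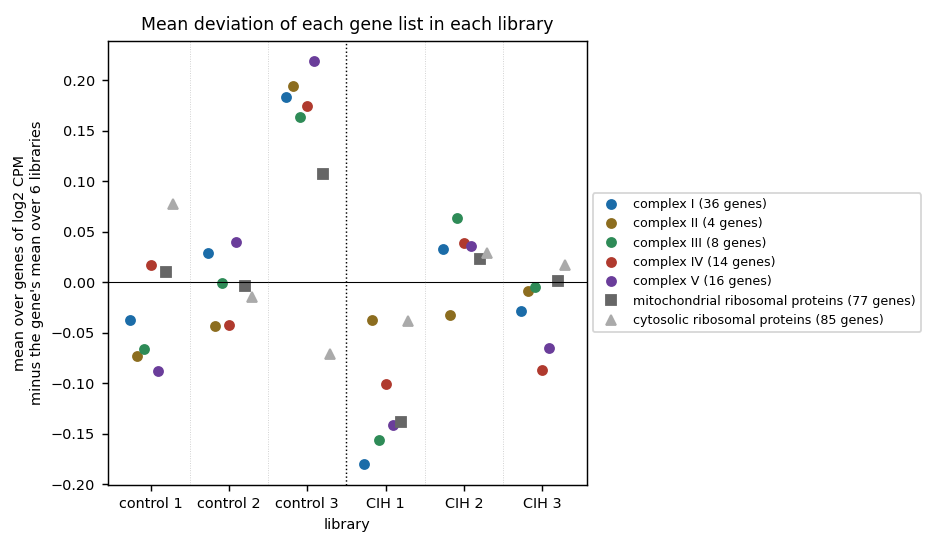
Mean over the genes of each list of log2 CPM minus the gene's mean over 6 libraries (y axis, log2 units), for each library (x axis), with circles for the 5 complexes, squares for mitochondrial and triangles for cytosolic ribosomal protein genes. All 5 complexes are highest in control library 3, between 0.164 and 0.219, and 4 of the 5, all but complex II, are lowest in CIH library 1.

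The median difference therefore rested in large part on single libraries. Without control library 3 the median log2 fold change of the 78 genes was -0.031, with 50 genes below 0 and 28 above. Without CIH library 1 it was -0.059 (61 below), and without CIH library 2 it was -0.166 (68 below). Leaving out control library 1, control library 2 or CIH library 3 gave -0.141, -0.118 and -0.118. In each of these fits 0 subunit genes passed an adjusted p of 0.05. Between 0 and 7 had an unadjusted p under 0.05 by edgeR, with 7 when control library 1 was left out. The count over all genes also rose in that fit, to 1007 of 18349 genes tested, from 319 of 17935 with all 6 libraries.

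**Figure D4:**
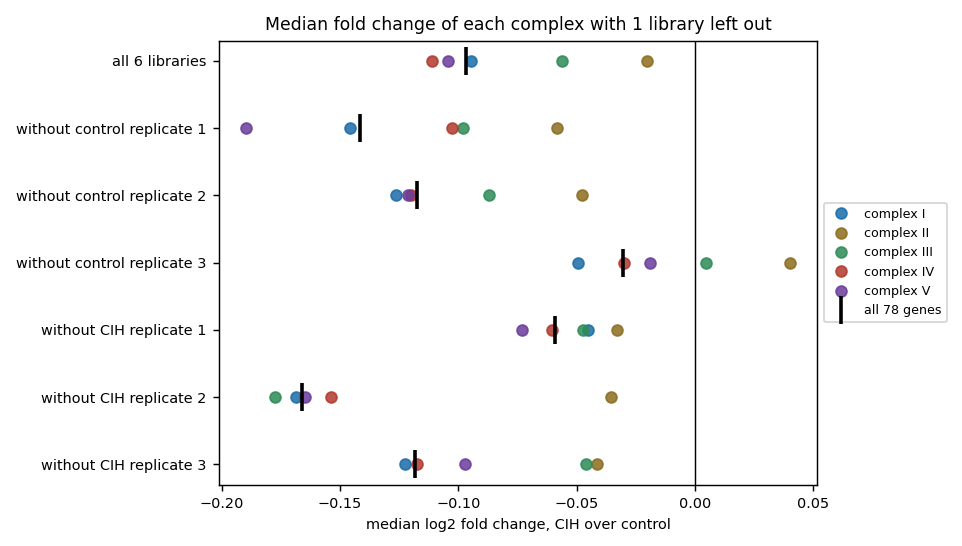
Median log2 fold change of the genes of each complex (circles) and of all 78 genes (bars), with all 6 libraries and with each library left out in turn; the x axis is in log2 units, CIH over control. Without control library 3 the median of all 78 moves to -0.031 and the medians of complexes II and III pass to the right of 0.

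In complex I, 33 of 36 genes had a log2 fold change below 0, with a median of -0.095, and 0 passed the adjusted threshold. Its 7 nuclear core subunits, which carry the flavin and the iron-sulphur clusters, were all below 0 with a median of -0.097. Ndufv1, the flavin-binding subunit that oxidises NADH, stood at 74.4, 84.3 and 101 CPM (counts scaled to library size) in control and at 77.0, 91.8 and 78.5 CPM in CIH (log2 fold change -0.07, SE 0.14). Ndufv2, which holds an iron-sulphur cluster beside it, stood at 53.7, 59.9 and 73.3 CPM against 56.1, 56.3 and 54.8 CPM, and its log2 fold change was -0.16 (SE 0.13). In both genes control library 3 was the highest of the 6 and control library 1 the lowest, so the groups overlapped.

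Ndufs1, the largest iron-sulphur subunit, had a log2 fold change of -0.06 (SE 0.11). Ndufs7, which lies by the quinone-binding site, was at -0.15 (SE 0.12). Ndufs3 and Ndufs8 were at -0.10 (SE 0.12) and -0.20 (SE 0.19). Control library 3 was the highest library for all 7 core genes. Ndufs1 and Ndufv1 had values above 0 without it, at 0.04 and 0.06.

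Among the 29 accessory subunits of complex I, which surround the core and are needed to build or hold it, 26 were below 0 with a median of -0.093. Ndufb10 (gene ID 681418), of the membrane arm, stood at 26.8, 30.7 and 31.7 CPM in control and at 20.9, 25.7 and 24.2 CPM in CIH. Every CIH library lay under every control library, and the means were 29.7 ± 2.56 and 23.6 ± 2.49 CPM (SD, n = 3 each). Its log2 fold change of -0.33 (SE 0.13) had an adjusted p of 0.9999 by edgeR's quasi-likelihood test, and lay between -0.40 and -0.26 with each library left out in turn. Ndufa12 (gene ID 299739), an accessory subunit of the peripheral arm, stood at 28.7, 25.5 and 26.5 CPM in control and at 22.4, 23.3 and 24.8 CPM in CIH. Its groups did not overlap, though the gap between control library 2 and CIH library 3 was narrow, and the log2 fold change was -0.20 (SE 0.11). Ndufb5, another membrane arm subunit, had 33.0, 39.0 and 44.0 CPM in control and 33.5, 32.0 and 33.6 CPM in CIH. Its CIH values were tightly grouped at the level of control library 1, with a log2 fold change of -0.23 (SE 0.13).

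The most abundant complex I messages per length were Ndufb4 and Ndufb8, at means of 395 and 279 TPM. Ndufb4 stood at 51.6, 51.5 and 55.5 CPM in control and 42.8, 54.7 and 53.2 CPM in CIH, and its log2 fold change of -0.07 (SE 0.12) was 0.02 without CIH library 1. Ndufb8 had a log2 fold change of -0.08 (SE 0.10). Above 0 were Ndufb9 at 0.05 (SE 0.10), Ndufs4 at 0.05 (SE 0.10) and Ndufa10 at 0.02 (SE 0.11). Ndufs4, a subunit of the NADH-oxidising end, did not follow the others over the 6 libraries, with a correlation of -0.178 with their mean. Ndufa4, named for complex I but since assigned to complex IV, was counted by its name and stood at -0.03 (SE 0.13).

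Complex II, succinate dehydrogenase, is built from 4 nuclear genes and also works in the citric acid cycle. It had 2 genes below 0 and 2 above, with a median of -0.020. Sdha, the flavoprotein, stood at 139, 159 and 171 CPM in control and at 154, 153 and 143 CPM in CIH (log2 fold change -0.06, SE 0.11). Sdhb, the iron-sulphur subunit, stood at 65.3, 58.9 and 68.8 CPM against 64.8, 66.4 and 64.4 CPM, with a log2 fold change of 0.02 (SE 0.10). The CIH values of both fell inside the control range. The membrane anchors were less alike. Sdhc had 55.3, 50.7 and 61.2 CPM in control and 53.4, 54.2 and 62.4 CPM in CIH (log2 fold change 0.02, SE 0.12). Sdhd had 38.7, 44.5 and 56.8 CPM in control and 40.3, 39.5 and 40.6 CPM in CIH (log2 fold change -0.22, SE 0.15). For Sdhd all 3 CIH libraries sat just above control library 1 and well under control library 3, and without the latter its log2 fold change was -0.05. Sdha was at 0.01 without control library 3, and the complex II median was then 0.040.

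Complex III had 6 of 8 genes below 0, with a median of -0.056, and held the gene farthest above 0. Uqcrh (gene ID 366448), the acidic hinge protein that helps cytochrome c meet cytochrome c1, stood at 32.9, 30.3 and 28.4 CPM in control and at 37.2, 37.3 and 35.0 CPM in CIH. All CIH libraries were higher than all control libraries, with means of 30.6 ± 2.27 and 36.5 ± 1.30 CPM (SD, n = 3 each). Its log2 fold change of 0.26 (SE 0.10) had an adjusted p of 0.9999 by edgeR and lay between 0.21 and 0.31 with each library left out in turn. Control library 3, the highest library for most subunit genes, was the lowest for Uqcrh.

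Uqcrb (gene ID 362897), a small subunit near the ubiquinone site, stood at 24.8, 24.9 and 29.4 CPM in control and at 21.9, 20.7 and 24.3 CPM in CIH. The groups did not overlap, with CIH library 3 just under control library 1, and the log2 fold change was -0.24 (SE 0.13). Uqcrfs1, the Rieske iron-sulphur protein, stood at 59.0, 66.5 and 73.2 CPM in control and at 53.5, 57.7 and 61.9 CPM in CIH (log2 fold change -0.20, SE 0.12). Its groups overlapped through CIH library 3 and control library 1. The core proteins Uqcrc1 and Uqcrc2 had log2 fold changes of -0.08 (SE 0.12) and -0.04 (SE 0.09). Uqcrc2 reached 249.6 TPM, under Uqcr11 at 415 TPM, the most abundant of the complex per length. Uqcr11 spread widely in CIH, at 49.7, 80.7 and 65.7 CPM against 68.4, 61.2 and 70.2 CPM in control. Its log2 fold change was -0.03 (SE 0.18), and 0.13 without CIH library 1.

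In complex IV, cytochrome c oxidase, 11 of 14 genes were below 0 with a median of -0.111. Cox4i1, the main isoform of the regulatory subunit 4, stood at 161, 167 and 184 CPM in control and at 146, 174 and 164 CPM in CIH (log2 fold change -0.08, SE 0.11). Cox4i2, the isoform known from hypoxia and lung, was close to the rule's count minimum with 100 counts in all. It stood at 0.745, 0.848 and 0.742 CPM in control and at 1.18, 0.948 and 0.556 CPM in CIH, so that CIH held both the highest and the lowest library. Its log2 fold change was 0.19 (SE 0.36), and -0.05 without CIH library 1. In TPM, Cox4i2 amounted to 0.397% to 0.498% of Cox4i1 in control and 0.333% to 0.791% in CIH.

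The isoforms typical of other tissues were read at traces. Cox6a1 and Cox7a2, the forms of most tissues, had means of 859.6 and 203 TPM, beside 3.41 and 0.975 TPM for the identifiers filed under the muscle forms Cox6a2 and Cox7a1. Both identifiers were under the count minimum of the rule, with 54 and 57.5 counts in all, and are not among the 78. Cox7a1 also has a copy filed as LOC687508, at a mean of 0.973 TPM. That copy, and the non-whole counts of Cox7a2, are described with the gene copies. Cox7b2, Cox8b and Ndufs6 were also under it, with 6, 13 and 29.1 counts. Just inside were Cox6b2 with 77 counts and Cox4i2. Cox6a2 amounted to 0.142% to 0.808% of Cox6a1 in TPM over the 6 libraries, and the identifier filed as Cox7a1, without its copy, to 0.176% to 0.824% of Cox7a2. Cox6b2 amounted to 0.441% to 1.46% of Cox6b1, and its log2 fold change of -0.34 had an SE of 0.49. The log2 fold changes of Cox6a2 and Cox7a1, which passed the filter on low counts, were -0.32 (SE 0.70) and -0.23 (SE 0.54).

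Cox5a and Cox5b, near the core of complex IV, had log2 fold changes of -0.09 (SE 0.12) and -0.19 (SE 0.14). Cox5b stood at 58.2, 67.9 and 70.0 CPM in control and at 47.8, 64.5 and 59.9 CPM in CIH, with CIH library 1 lowest. Cox6c was at -0.18 (SE 0.13), Cox6a1 at -0.16 (SE 0.16), Cox7a2 at -0.17 (SE 0.24) and Cox8a at -0.12 (SE 0.15). The Cox7a2 value may depend on how reads were divided with Cox7a2l2, as described with the gene copies. Cox8a stood at 126, 149 and 166 CPM in control and at 119, 152 and 134 CPM in CIH, interleaved between the groups. Cox7a2l, which joins complexes III and IV into supercomplexes, was at 0.00 (SE 0.10) with 71.2, 71.7 and 77.8 CPM against 69.4, 74.7 and 77.1 CPM. Its sign was below 0 with DESeq2 and in 4 of the 6 fits that left out a library.

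In complex V, 15 of 16 genes were below 0 with a median of -0.105, and only Atp5pf, of the peripheral stalk, was above at 0.02 (SE 0.10). Atp5mg (gene ID 300677), the g subunit of the membrane part, stood at 58.3, 63.1 and 79.1 CPM in control and at 52.2, 57.8 and 53.6 CPM in CIH. The groups did not overlap, but CIH library 2 was close under control library 1 and control library 3 stood well above the rest. The means were 66.8 ± 10.9 and 54.5 ± 2.88 CPM (SD, n = 3 each), and the log2 fold change was -0.29 (SE 0.14), or -0.15 without control library 3. Atp5mf, the f subunit, was at -0.15 (SE 0.12).

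The 5 genes of the F1 head, where ATP is made, were all below 0 with a median of -0.105. Atp5f1b, the catalytic beta subunit, had 475, 549 and 617 CPM in control and 506, 543 and 487 CPM in CIH, with a log2 fold change of -0.10 (SE 0.14). Without control library 3 its value was -4.92e-04. Atp5f1a, the alpha subunit, was at -0.12 (SE 0.13), Atp5f1c, the gamma subunit of the central stalk, at -0.03 (SE 0.11) and Atp5f1e at -0.11 (SE 0.13). The 3 c-ring genes Atp5mc1, Atp5mc2 and Atp5mc3 encode the same mature protein behind different import signals. They were at -0.07 (SE 0.13), -0.13 (SE 0.13) and -0.26 (SE 0.17), and each was highest in control library 3 and lowest in CIH library 1. For Atp5mc3 the values were 57.1, 71.8 and 88.1 CPM in control and 53.7, 65.4 and 61.7 CPM in CIH, so all but 1 CIH library lay inside the control range. Atp5if1, the inhibitor that stops the synthase from running in reverse, was at -0.18 (SE 0.16). In TPM it amounted to 48.9% to 64.8% of Atp5f1b over the libraries, with values of both groups at either end.

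Second identifiers, taken as gene copies from their names, bear on a few of these readings. Their sequences were not compared. Uqcr10, a small complex III subunit, had only 38, 56 and 101 counts in control and 41, 60 and 49 in CIH (log2 fold change -0.30, SE 0.35). A second identifier, RGD2320734, which RefSeq now names Uqcr10-ps1 and lists as a pseudogene, had 231, 136 and 174 counts in control and 175, 254 and 215 in CIH (log2 fold change 0.31, SE 0.22). Summed, they gave 269, 192 and 275 counts against 216, 314 and 264, and a log2 fold change of 0.18 (SE 0.17), above 0 where Uqcr10 alone was below it. Both identifiers had whole counts in every library. The direction for Uqcr10 depends on whether the second identifier is counted with it, and is thus uncertain. The identifier filed as Ndufs6 is now Ndufs6-ps1, and the current Ndufs6, a complex I subunit, was filed as LOC679739. LOC679739 had 105, 100 and 149.9 counts in control and 92, 101 and 94 in CIH (log2 fold change -0.22, SE 0.19). RefSeq now gives the name Cox7a1 to LOC687508, which is not covered by the symbol rule, and the identifier filed as Cox7a1 was not matched there. LOC687508 had 13.1, 18.2 and 22 counts in control and 14.1, 14.3 and 17.3 in CIH (log2 fold change -0.15, SE 0.32). Summed, the Cox7a1 copies gave 24, 34 and 27 counts against 22, 20 and 29, with the groups overlapping and a log2 fold change of -0.18 (SE 0.30). With Atp5md, a small subunit of the synthase now called Atp5mk, the summed copies were at -0.03 (SE 0.13), and Atp5md alone was at -0.01 (SE 0.14). Counts that were not whole, a sign of reads shared out between genes, occurred in 18 of the 78 genes. The median log2 fold change was -0.089 in these 18 and -0.099 in the other 60. Cox7a2 and Cox7a2l2, both counted in complex IV, had non-whole counts in every library. Cox7a2 had 493.69, 679.09 and 710.08 counts in control and 405.72, 776.27 and 421.80 in CIH. Cox7a2l2 had 241.31, 183.91 and 208.92 against 171.28, 117.73 and 246.20. In each library the decimal parts of the pair make up a whole number. Cox7a2 was highest in CIH library 2, where Cox7a2l2 was lowest. Their levels and fold changes may depend on how reads were divided, which was not tested.

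**Figure D5:**
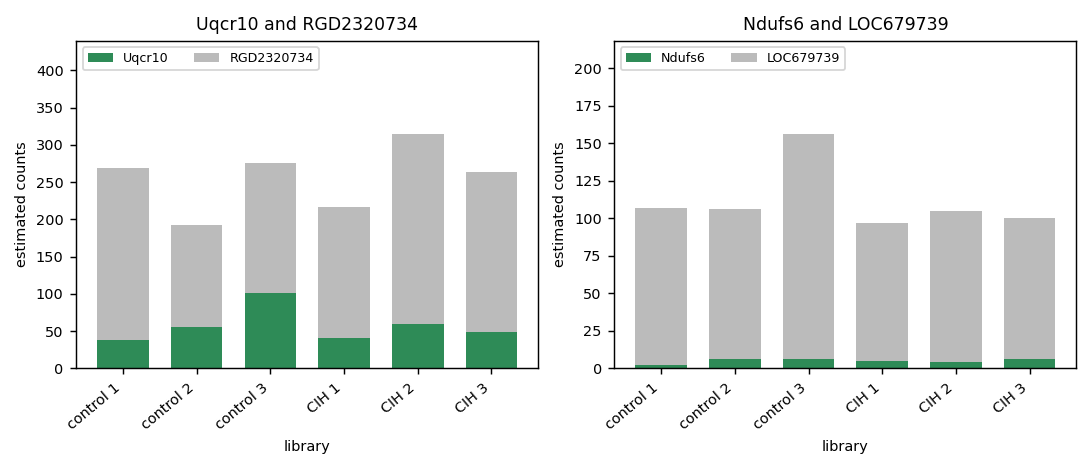
Estimated counts (y axis) per library of Uqcr10 and RGD2320734 (left) and of Ndufs6 and LOC679739 (right), stacked, with the identifier that bears the subunit's name in green. Most counts of each pair sit on the other identifier, and the Uqcr10 pair sums to 192 to 275 in control and 216 to 314 in CIH.

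Other genes of the pathway, from lists drawn up by name, also held 0 genes past the adjusted threshold. Of 7 tested subunits and carriers that the rule does not cover, 5 were below 0 with a median of -0.118. Ndufab1, the acyl carrier protein of complex I, was at -0.25 (SE 0.16) and Cycs, cytochrome c, at -0.21 (SE 0.14). Of 44 assembly factors, 28 were below 0 and 16 above, with a median of -0.061. Sdhaf1, which helps insert the iron-sulphur clusters of Sdhb, stood at 18.7, 15.1 and 18.03 CPM in control and at 19.1, 21.9 and 21.9 CPM in CIH. Its groups did not overlap, and its log2 fold change was 0.28 (SE 0.13). Uqcc3, a complex III assembly factor, was at -0.34 (SE 0.22).

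Of the 12 citric acid cycle genes, 9 were below 0 and 3 above, with a median of -0.035. Suclg2, the GTP-forming succinyl-CoA ligase subunit, was at 0.20 (SE 0.11) and Fh, fumarase, at -0.20 (SE 0.13). The 17 regulators of mitochondrial biogenesis had 7 genes below 0 and 10 above, and a median of 0.006. Esrrg was at 0.15 (SE 0.13), and Nrf1, whose motif was counted in the promoters, at 0.12 (SE 0.12). Among 8 mitochondrial genes known to respond to hypoxia, Cox4i2 included, 3 were below 0 and 5 above, with a median of 0.048. Bnip3, a mitophagy receptor, was at 0.21 (SE 0.17), and 0.01 without CIH library 1. Lonp1, the matrix protease, was at -0.14 (SE 0.10).

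The ribosomal protein genes serve as large sets of small, abundant messages for comparison. Of 77 mitochondrial ribosomal protein genes, 58 were below 0 with a median of -0.093, close to the value of the oxidative phosphorylation subunits. Of 85 cytosolic ribosomal protein genes, 42 were below 0 with a median of 0.010. Over the 6 libraries the correlation with the mean of the 78 subunit genes had a median of 0.463 for the mitochondrial and -0.203 for the cytosolic set, beside -0.004 over all genes tested. The 5 genes outside the rule whose log2 CPM followed that mean most closely were Lgals8 (0.996), Dhcr7 (0.993), Tmem147 (0.990), Slc25a39 (0.989) and Tmed9 (0.986), as Pearson correlations over 6 libraries. They were picked as the highest among 17935 genes tested, over which the correlation ran from -0.996 to 0.996. Their values are therefore high by selection.

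Markers of cell types also differed between libraries, and their part in the values above was not tested. All 4 tested dentate granule markers of 6 were below 0, with a median log2 fold change of -0.59. Their summed level was 147 to 248 TPM in control and 55.3 to 209 TPM in CIH, with the lowest value in CIH library 1. Of the CA field markers, 4 of 5 were tested and 3 were below 0, with a median of -0.16. They summed to 1092 to 1582 TPM in control and 743 to 1654 TPM in CIH, and CIH library 1, the lowest library for 44 of the 78 subunit genes, was again the lowest. All 7 endothelial and pericyte markers were above 0, with a median of 0.28 and a summed level of 322 to 411 TPM in control and 372 to 472 TPM in CIH, again with CIH library 1 at the end of the range. The 6 oligodendrocyte markers were above 0 (median 0.36) and spanned 4023 to 11234 TPM in control and 7189 to 10403 TPM in CIH. All 6 erythroid markers were above 0 (median 0.40), at 343 to 544 TPM in control and 301 to 678 TPM in CIH, and all 4 tested choroid plexus markers of 6 were below 0 (median -0.58), at 17 to 62.2 and 5.53 to 64.4 TPM. Of 6 microglia markers 5 were above 0 (median 0.15), at 145 to 162 TPM in control and 154 to 177 TPM in CIH. The 6 astrocyte markers had 3 on either side of 0 (median 0.024), at 2786 to 3678 and 3308 to 3425 TPM. The 6 neuron markers had a median of -0.040, with 4 below 0. Their summed level was also lowest in CIH library 1, at 3227 TPM. It was 4192 TPM in control library 3 and highest, at 4402 TPM, in CIH library 2. Of the striated muscle markers, 2 of 4 were tested, and the 4 summed to 29.8 to 37.2 TPM in control and 39.0 to 61.1 TPM in CIH. Ckm and Tnnt3, the dentate markers Tdo2 and Lct, the CA field marker Spink8 and the choroid plexus marker Otx2 were at 0 in some libraries, and no marker of these lists was at 0 in all 6.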

How the data were processed

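RNA from 6 hippocampus libraries was used, and the 6 small RNA libraries of the series were not used here. The deposited table gives estimated read counts, TPM and FPKM per gene, per the file headers, made by the authors. Bowtie2 2.2.5, HISAT2 2.2.0, RSEM 1.2.12 and the build Rnor_6.0 are named, per the submitters' processing notes, with no role or order. The annotation was not given in the sources used here, nor was the use of strand, so overlapping and antisense genes may share reads. FPKM values of the authors were not used. Precision from counting is set by 17170943 to 21941173 estimated counts per library, and reads without molecular identifiers are not independent molecules.

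Columns were matched to samples by description and title. The authors' estimated counts were rounded and tested with edgeR 4.0.16 in R 4.3.3 (quasi-likelihood F test, TMM, filterByExpr, Benjamini-Hochberg, threshold 0.05), which left 17935 genes. CPM values use TMM-scaled totals, log2 CPM has a prior count of 2, and the SE of a fold change comes from the F statistic. The deposited TPM values of the authors served for levels between genes and for an alternative test with limma 3.58.1. Set medians and counts are descriptions without a test. The subunit genes and all lists were chosen with earlier results of these data known. Genes were named by rule: per complex the 2 highest in TPM, the 3 with the smallest p and the largest fold change, fixed core and isoform genes, genes under the count minimum, up to 2 genes per other list by smallest p, and the 5 genes most alike by correlation. Others (Ndufb9, Ndufs4, Ndufa10, Ndufa4, Ndufc1, Cox7a2l2, Atp5pf, Atp5md, RGD2320734, LOC679739, LOC687508) were named after their values were seen. A single subunit gene is counted in the sets but not reported on its own.

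Promoters and current gene names come from RefSeq (GRCr8), where 82 of the 83 identifiers and 69 of the 78 windows were found. In simulated counts over 17935 genes, the test found 20% of 100 genes set to differ by 1 log2 unit and 72% of 100 set to differ by 2, and made 8 false calls. The changed genes were drawn at random from all genes tested, whose median SE was 0.198, beside 0.131 for the 78. Differences under 1 log2 unit were not simulated, so these shares do not give the sensitivity for the subunit genes. Alternatives were DESeq2 1.42.0, RLE factors, a fit without the low-count filter, limma on log2(TPM + 1) and on log2(TPM + 0.1), a block for the replicate number, and each library left out in turn. Counts summed over identifiers taken as copies were chosen after seeing the data.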

Additional observations from a re-analysis of the deposited data

How the results depend on the processing

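The count of oxidative phosphorylation genes past the adjusted threshold was 0 in every alternative run. The count over all genes, 0 with edgeR, was 10 with DESeq2, 1 with limma on log2(TPM + 1), 1 with limma on log2(TPM + 0.1) and 0 to 1 with each library left out, with 1 without control replicate 3 and 1 without CIH replicate 2. The cause was not tested. With the replicate number as a block 0 genes passed and the median of the 78 genes was -0.0955. Deviations of same-numbered libraries correlated at -0.222, -0.046 and -0.176, which gave no sign that they vary together. Whether same-numbered libraries were handled as pairs cannot be told from these values. With the other normalization, filter and tests the median of the 78 genes was -0.097 to -0.105, with 67 or 68 genes below 0. The median of complex III was -0.177 without CIH replicate 2 and ranged from -0.177 to 0.00458 with each library left out. Cox7a2l was at -1.28e-04 with DESeq2, and Uqcr10 at 0.18 with its copies summed. With each library left out, these log2 fold changes crossed 0: Atp5f1c from -0.102 to 0.0411, Atp5mc1 from -0.141 to 0.0304, Cox4i2 from -0.0493 to 0.441, Cox5a from -0.197 to 0.0044, Cox6a2 from -1.01 to 0.10, Cox7a1 from -0.59 to 0.20, Cox7a2l from -0.0326 to 0.0464, Ndufb4 from -0.141 to 0.0239, Ndufs1 from -0.119 to 0.0387, Ndufv1 from -0.164 to 0.0562, Sdha from -0.137 to 0.0104, Sdhb from -0.0445 to 0.0698, Sdhc from -0.0538 to 0.0963, Uqcr10 from -0.55 to 0.12, Uqcr11 from -0.21 to 0.13 and Uqcrc2 from -0.0773 to 8.24e-04. Of the values for named genes, 638 kept their direction and side of the threshold and 25 did not keep their direction. Fold changes of Cox4i2, Cox6a2, Cox6b2 and Cox7a1, with 54 to 100 counts in all, are limited by depth.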
